A study of Sus scrofa with 3 samples.

Results

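The RNA that came down with control IgG from pig longissimus dorsi muscle was set against the total RNA of the same tissue, transcript by transcript. All 14580 assembled transcripts with a value in both libraries were taken, out of 14580 in the series, with values of 0 kept. The deposited tables hold 26521 rows each, and the 11941 transcripts that stand on 2 identical rows were counted once.

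The study looked for lincRNAs, long RNAs transcribed between protein-coding genes, that bind EZH2 in skeletal muscle. Its libraries came from longissimus dorsi muscle, the long muscle of the back, of Large White female pigs aged 1 month. There was 1 library of RNA precipitated with IgG (IgG RIP-Seq), 1 of RNA precipitated with an antibody to EZH2 (EZH2 RIP-Seq) and 1 of total RNA after removal of ribosomal RNA (lincRNAseq). All groups had 1 library, so no value has an error between animals. The study describes the sample as the same for the precipitates and for lincRNAseq. It speaks of a single pig in its results and in the account of lincRNAseq. Elsewhere, as in the account of the precipitation, it speaks of pigs, so the number of animals is not certain. Removal of ribosomal RNA and marking of the strand are described for lincRNAseq alone, and a different company sequenced it, so effects of library preparation and of precipitation cannot be told apart. The values are FPKM, in which fragments are divided by transcript length and by the total of the library, named IgG_FPKM, EZH2_FPKM and lincRNA_FPKM here. The transcripts carry no gene names, so the tissue could not be checked against marker genes. In whole muscle, fewer cells of a type and less RNA per cell cannot be told apart.

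In RNA immunoprecipitation, an antibody on beads pulls a protein and the RNA attached to it out of a cell lysate. IgG is an antibody without a chosen target, and RNA found with it has come down with the beads, the tube or the antibody itself. The IgG sample is therefore the measure of background in such an experiment. EZH2 is the enzyme of a Polycomb complex that methylates histone H3, and it is known to bind RNA of many kinds.

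The transcripts that the study took to PCR after precipitation show what kind of RNA is at issue. Their primers are printed because these amplicons are where the IgG background would be read in a PCR assay. Each primer is written 5′ to 3′ in capitals throughout.
TCONS_00025364 forward: CTCCCCACTGTCTTGCTTCA
TCONS_00025364 reverse: GACCCAGTGACCTTGGAGTG
TCONS_00045380 forward: ACCCCGAAAACAGACGAGC
TCONS_00045380 reverse: CGGACAACCAGCTATCACCA
TCONS_00036665 forward: GCCGTCGATGCCCTGAACATG
TCONS_00036665 reverse: ACGCAGTCCCTAGACCCCCCT
The primers of TCONS_00036665 lie on its full-length sequence at nucleotides 380 to 400 (forward) and 655 to 675 (reverse, in complement), numbered from 1 at the 5′ end. The amplicon of 296 nt has a GC content of 63.5%, against 50.5% over the 3450 nt of the whole sequence. The primer sites at both ends are in capitals.
TCONS_00036665 amplicon: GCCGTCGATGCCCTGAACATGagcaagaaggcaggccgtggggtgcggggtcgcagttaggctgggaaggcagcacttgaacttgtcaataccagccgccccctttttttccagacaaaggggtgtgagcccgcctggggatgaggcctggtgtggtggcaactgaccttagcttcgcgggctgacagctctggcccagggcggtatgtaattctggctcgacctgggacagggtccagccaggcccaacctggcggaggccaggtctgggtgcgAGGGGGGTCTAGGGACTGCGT

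TCONS_00025364 on chromosome 15 had an IgG_FPKM of 1086, a lincRNA_FPKM of 242.2 and an EZH2_FPKM of 4905. TCONS_00045380 on chromosome 4 had an IgG_FPKM of 472.1, a lincRNA_FPKM of 234.2 and an EZH2_FPKM of 3604. TCONS_00036665 on chromosome 2 had an IgG_FPKM of 74.3, a lincRNA_FPKM of 43.3 and an EZH2_FPKM of 317.5. All 3 were thus among the higher transcripts of the IgG library, at ranks 4, 9 and 65. Their ranks in lincRNAseq were 79, 82 and 357. The log2 ratio of IgG to lincRNAseq, with 2 added to both FPKM values, was 2.16, 1.01 and 0.75 in the same order. When ratios were centred on the median of the transcripts above 0 in both libraries they became 0.85, -0.30 and -0.55. After scaling both libraries to the same sum they were 4.76, 3.61 and 3.33, so that the direction of TCONS_00045380 and TCONS_00036665 depended on the scaling.

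IgG signal was sparse. IgG_FPKM was above 0 for 1043 transcripts, or 7.15% (95% Wilson interval 6.75 to 7.58), while lincRNA_FPKM was above 0 for 12466. Intervals of this kind cover counting error over transcripts only. Among the 1043 transcripts the median IgG_FPKM was 5.97, with quartiles of 2.89 and 15.7 and a maximum of 9387. A small group of 23 values lay below 0.01, far under the worth of 1 fragment.

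The share of transcripts detected with IgG was compared between levels of total RNA. Of the 2114 transcripts with a lincRNA_FPKM listed at 0, which may be a failed estimate, 105 had IgG signal, or 4.97% (4.12 to 5.98). The share was 6.15% (4.43 to 8.47) above 0 to 0.1, 7.11% (6.58 to 7.68) above 0.1 to 1, and 8.38% (7.38 to 9.50) above 1 to 10. These shares differ by a few percentage points between total-RNA levels that lie a factor of 10 apart. In the class above 10 to 100 the share was 7.48% (5.80 to 9.58). It was 16.8% (11.9 to 23.2) above 100 to 1000, where 28 of 167 transcripts were detected. Above 1000 it was 35.3% (17.3 to 58.7), or 6 of 17. The interval lay wholly below the 7.15% of all transcripts in the class at 0, and wholly above it in the class above 1 to 10 and in both classes above 100. With a minimum IgG_FPKM of 5 the shares in the 5 classes up to 100 were 4.64%, 5.24%, 3.23%, 4.70% and 5.34%, so that the order of these classes depended on the minimum. Even above 1000, more than 50% of the RNAs were listed at 0 with IgG.

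**Figure D1:**
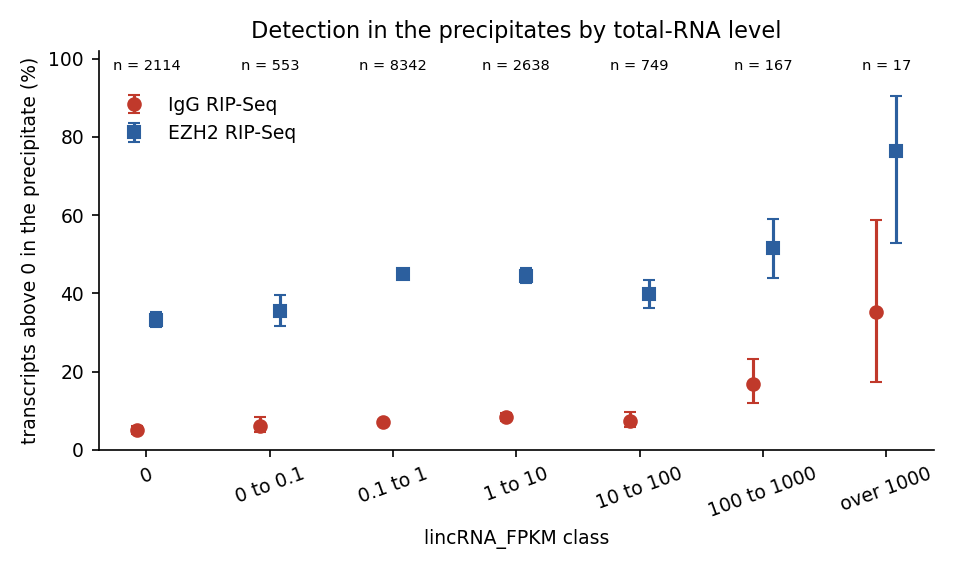
Share of transcripts above 0 in the IgG and EZH2 RIP-Seq libraries (vertical axis, %) in 7 classes of lincRNA_FPKM (horizontal axis), with 95% Wilson intervals as bars and the number of transcripts in each class. The IgG share runs from 4.97% to 8.38% in the classes up to 100 and is 16.8% and 35.3% in the classes above.

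The EZH2 precipitate had more transcripts above 0 in every class. Its share ran from 33.3% at a lincRNA_FPKM of 0 to 76.5% above 1000. For each transcript detected with EZH2, the IgG library had 0.149 detected transcripts in the class at 0 and 0.462 in the class above 1000. The fit used below for the depth of the IgG library gave no usable size for the EZH2 library, and the part of depth in this difference was not tested.

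Seen from the other side, the transcripts with IgG signal were only slightly more abundant in total RNA. The lincRNA_FPKM of the 1043 detected transcripts had a median of 0.494, with 0.284 and 1.45 as quartiles. For the 13537 transcripts with IgG_FPKM at 0 the median was 0.392, with 0.210 and 0.936 as quartiles. A lincRNA_FPKM above 1 was found for 29.8% of the former and 24.1% of the latter. The distributions overlapped over most of their range.

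How far a value of 0 can be read depends on the depth of the IgG library. The depth was estimated from 29 lincRNAs of at least 800 nt with an IgG_FPKM above 0.01 and a known length, from a list that the study selected on these same libraries. In 16 of them the IgG_FPKM times length lay in a lowest cluster, which was fitted as 1 fragment, worth 5.43 FPKM divided by the length in kilobases after 201 nt were taken off. Of 9 further values below 10.5 fragments, 8 were whole multiples of this size within 0.1, where 20% of evenly spread values would be. On this estimate the values were scaled to 184127 fragments in all, and 1 fragment on a transcript of 1 kb was worth 6.80 FPKM. The lincRNA_FPKM was no higher than that for 13394 transcripts (91.9%), so at equal levels most transcripts of this length would give no more than 1 IgG fragment.

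Expected numbers of fragments could be reckoned for the same list. At an IgG level equal to the total-RNA level, and with the full length of each lincRNA, 311 of 356 lincRNAs would have had under 1 IgG fragment, with a median of 0.240. The estimate is not firm: the size with the largest share of whole multiples, an alternative chosen after seeing the data, was 1.38, which gives 3.94 times as many fragments, a median of 0.947 and 186 lincRNAs under 1. For a lincRNA under 1 expected fragment, an IgG_FPKM of 0 does not show that the RNA was absent from the precipitate. How many of the list were detected at each expected number is not given, because the study's selection used IgG_FPKM itself. By the size of 5.43, TCONS_00045380 had about 54.0 IgG fragments, while TCONS_00025364, too short for the length correction, had at most 47.6. None is given for TCONS_00036665, whose assembled length differs from that of the full sequence.

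The ranks of the libraries had little in common. Over all 14580 transcripts Spearman's rho of IgG_FPKM and lincRNA_FPKM was 0.056 and Pearson's r of log2(FPKM + 2) was 0.096. Over the 938 transcripts above 0 in both libraries rho was 0.154 and r was 0.405. Over the 1043 with IgG signal rho was -0.058 and r was 0.249. With the detected transcripts at a lincRNA_FPKM of 0 included, rho thus turned below 0 while r stayed above it. Transcripts are not replicates: they share the library, its depth and the length by which FPKM is divided.

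The IgG library was nearer in rank to the other precipitate than to total RNA. With EZH2_FPKM, rho of IgG_FPKM was 0.214 over all transcripts, 0.281 over the 938 above 0 in IgG and lincRNAseq and 0.307 over the 1043 with IgG signal. Over the 745 transcripts above 0 in all libraries it was 0.523 with EZH2_FPKM and 0.165 with lincRNA_FPKM. The sets differ in which values of 0 they leave out, and rho with EZH2_FPKM depended on that. Whether these coefficients differ beyond chance was not tested, because each library stands alone.

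Transcripts detected with EZH2 were also detected with IgG more often. IgG_FPKM was above 0 for 815 of 6226 transcripts with EZH2 signal, or 13.1% (12.3 to 14.0), and for 228 of 8354 without it, or 2.73% (2.40 to 3.10). The intervals do not overlap, but they treat transcripts as independent, and transcript length was not held fixed. At a lincRNA_FPKM of 0 the shares were 9.96% and 2.48%, and above 10 to 100 they were 15.1% and 2.44%. Where EZH2_FPKM was 0, the IgG share stayed between 2.44% and 3.36% in the 6 classes up to 1000. Above 1000 it was 0 of 4 (0 to 49.0), an interval too wide to compare with the 46.2% (23.2 to 70.9) of transcripts with EZH2 signal. By EZH2_FPKM the IgG share was 11.6% above 1 to 10, 24.2% above 100 to 1000, and 15 of 15 above 1000.

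**Figure D2:**
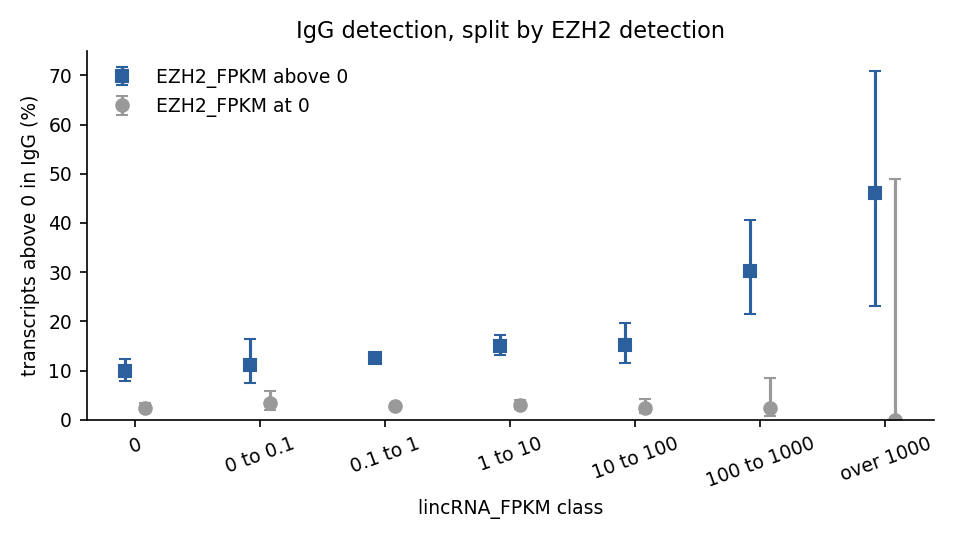
Share of transcripts with IgG signal (vertical axis, %) in classes of lincRNA_FPKM (horizontal axis), separately for transcripts with EZH2_FPKM above 0 and at 0, with 95% Wilson intervals as bars. Up to 1000 the share is 2.44% to 3.36% without EZH2 signal and 9.96% to 30.2% with it. Above 1000 it is 46.2% with EZH2 signal, and the class without it holds 4 transcripts.

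Many detected transcripts had more FPKM with IgG than in total RNA. The log2 ratio of IgG to lincRNAseq was at least 1, a 2-fold difference after adding 2 to both values, for 672 transcripts, which is 4.61% of all 14580. A ratio of at least 1 requires an IgG_FPKM above 0, so all 672 had IgG signal by construction. They were 64.4% of the 1043 detected, a share that also depends on the worth of 1 fragment. By the size of 5.43 that worth was 6.80 FPKM on 1 kb, and the median lincRNA_FPKM of all transcripts was 0.399. At these values a single fragment would pass the 2-fold limit. The log2 ratio was at most -1 for 2283 transcripts, or 15.7%, and 71 of these had IgG signal. The remaining 300 detected transcripts lay between these limits. After centring on the median ratio of the transcripts above 0 in both libraries, which was 1.30, 288 were higher and 13742 lower. Centring by more than the limit of 1 puts all 13537 transcripts with IgG_FPKM at 0 among the lower ones by construction. After scaling both libraries to the same sum, 951 were higher and 2242 lower. Because each library is scaled to its own total, the ratio compares shares of libraries, not amounts of RNA.

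The ratio has lincRNA_FPKM as its denominator, and IgG_FPKM hardly followed lincRNA_FPKM in rank, so a fall of the ratio with total RNA is built into it and is given as a description. At a lincRNA_FPKM of 0, 104 of the 105 detected transcripts were at least 2-fold above, and above 0.1 to 1 it was 420 of 593. The share fell to 45.7% of detected transcripts above 1 to 10, 21.4% above 10 to 100 and 10.7% above 100 to 1000, and above 1000 it was 0 of 6. The worth of 1 fragment limits how low most IgG_FPKM values above 0 can be. By the size of 5.43, a single fragment on 1 kb would pass the 2-fold limit at a lincRNA_FPKM of 1 or less. How far this holds at the lengths of these transcripts was not tested. Of the 672 transcripts, 116 had a lincRNA_FPKM above 1 and 15 above 10.

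The 2 largest ratios among transcripts above 0 in both libraries belonged to TCONS_00049372 and TCONS_00002788. TCONS_00049372 on chromosome 5 reached 281.3 FPKM with IgG, 195.2 with EZH2 and 1.10 in lincRNAseq, and its log2 ratio of IgG to lincRNAseq was 6.52. TCONS_00002788 on chromosome 1 reached 380.6 FPKM with IgG, 276.6 with EZH2 and 4.34 in lincRNAseq, with a ratio of 5.92. Both had more FPKM with IgG than with EZH2. Their direction against total RNA was the same after centring and after scaling each library to the same sum. The files do not pair these identifiers with gene names.

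At the other end stood RNAs whose IgG_FPKM was low relative to their total RNA. TCONS_00071881, on an unplaced scaffold, had the highest lincRNA_FPKM, 67573, with an IgG_FPKM of 230.7 and a log2 ratio of -8.18, and its EZH2_FPKM was 1892. Within the IgG library it was still at rank 22. TCONS_00021710 on chromosome 14 reached 511.1 FPKM in lincRNAseq, 2.57 with IgG and 24.8 with EZH2, with a ratio of -6.81. Both ratios kept their sign under the other scalings. Other abundant RNAs were listed at 0 with IgG, which may again be a failed estimate. TCONS_00071869, on another unplaced scaffold, had a lincRNA_FPKM of 27215 and TCONS_00008691 on chromosome 10 one of 19356, both with an IgG_FPKM of 0. Their EZH2_FPKM values were 135.0 and 173.1. Of the 17 transcripts above 1000 in lincRNAseq, 11 had an IgG_FPKM of 0, and 7 of those 11 had EZH2 signal.

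**Figure D3:**
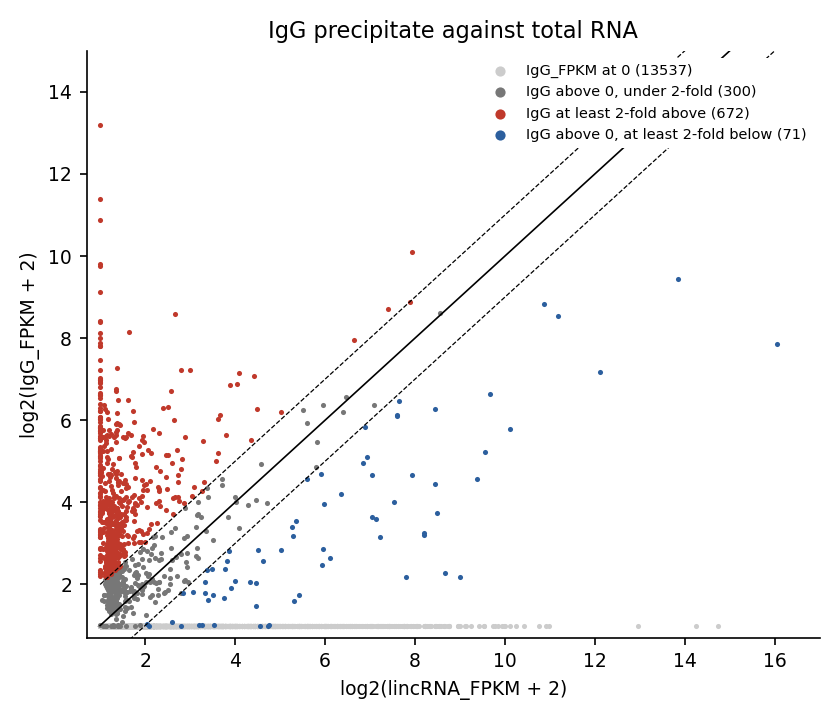
Log2(IgG_FPKM + 2) (vertical axis) against log2(lincRNA_FPKM + 2) (horizontal axis) for 14580 transcripts, with the line of equal values and dashed lines at a 2-fold difference. The 672 transcripts at least 2-fold above lie mostly at low total RNA, and the 71 detected ones at least 2-fold below at high total RNA.

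The RNAs found with IgG and listed at 0 in total RNA were few and held a large share of the summed IgG_FPKM. Such a share is not one of fragments or of RNA, because short transcripts reach high FPKM from few fragments. These RNAs listed at 0 numbered 105, 10.1% of the detected transcripts, and held 57.1% of the summed IgG_FPKM. Without TCONS_00053344, the highest of them, the other 104 held 43.4% of what was left. Their median IgG_FPKM was 36.5 (quartiles 15.7 and 91.0), against 5.29 (quartiles 2.60 and 12.9) for the 938 detected transcripts with a lincRNA_FPKM above 0. EZH2_FPKM was above 0 for 70 of the 105, or 66.7%, against 78.1% of all 1043 transcripts with IgG signal and 42.7% of all transcripts. TCONS_00053344 on chromosome 6 had an IgG_FPKM of 9387 and TCONS_00025359 on chromosome 15 one of 2658, both with a lincRNA_FPKM listed at 0, against which no fold is given. What these transcripts are was not examined, because no genome of the build was used here, and whether the difference in removal of ribosomal RNA bears on them was not tested. These were also the 2 highest values of the IgG library, and TCONS_00053344 was the highest of the EZH2 library as well, at 37498. TCONS_00045379 on chromosome 4, at rank 2 with EZH2 (11954), had an IgG_FPKM of 1882 and a lincRNA_FPKM of 0.

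Some transcripts had IgG signal but none with EZH2. These were 228, with a median IgG_FPKM of 7.87 (quartiles 4.06 and 18.3) and a maximum of 220.5. They held 9.84% of the summed IgG_FPKM. The transcripts with signal in both precipitates thus held the larger part, 90.2%.

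The summed IgG_FPKM was concentrated in few RNAs. This describes FPKM, not fragments. By the fragment size of 5.43, TCONS_00025364 had at most 47.6 of 184127 fragments but held 2.80% of the summed IgG_FPKM. The highest transcript held 24.2% of the summed IgG_FPKM, the 10 highest 48.9% and the 100 highest 76.7%. A share of 50% was reached with 11 transcripts and 90% with 280. For lincRNAseq the numbers were 4 and 359, and for EZH2 30 and 1119. The 10 highest held 63.2% in lincRNAseq and 41.4% with EZH2. Without the unplaced scaffolds they held 55.1% with IgG, 45.7% with EZH2 and 40.7% in lincRNAseq, so that the order of IgG and total RNA turned. Without the highest transcript of each library, the 10 highest held 34.0% with IgG, 26.5% with EZH2 and 49.5% in lincRNAseq. A single RNA thus decides much of these shares, and scaffold transcripts decide whether the 10 highest hold more with IgG or in lincRNAseq. The order also depended on the measure. With scaffolds kept, lincRNAseq reached 50% with fewer transcripts than IgG, and IgG reached 90% with fewer than lincRNAseq.

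**Figure D4:**
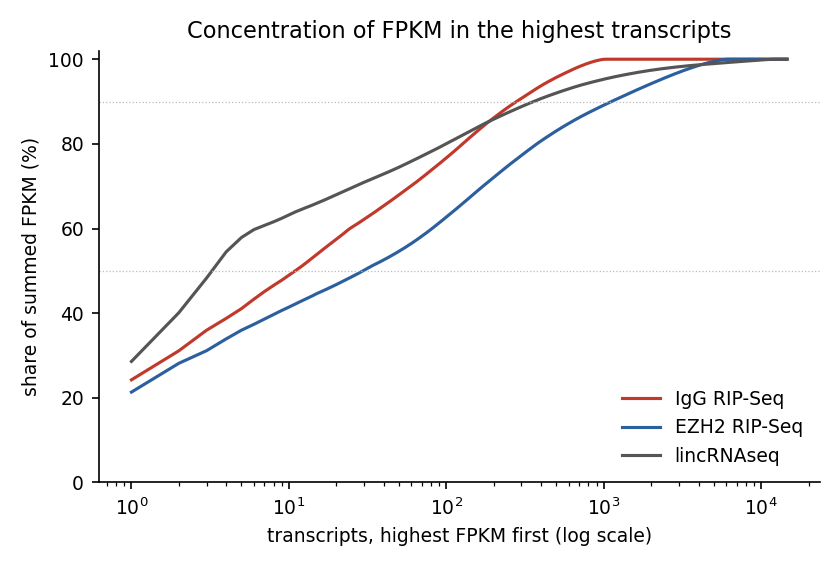
Cumulative share of summed FPKM (vertical axis, %) against the number of transcripts taken from the highest down (horizontal axis, log scale) for the 3 libraries, with dotted lines at 50% and 90%. IgG reaches 50% with 11 transcripts and 90% with 280.

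The highest RNAs with IgG were in part the highest in the muscle. Of the 10 highest transcripts of each library, 2 were shared by IgG and lincRNAseq and 7 by IgG and EZH2. Of the 100 highest, which are 0.686% of all transcripts, 11 were shared by IgG and lincRNAseq (11 of 100 in each list) and 34 by IgG and EZH2. No test was made of these overlaps. Among the 100 highest with IgG, 41 had a lincRNA_FPKM of 0, against 2114 of all 14580 transcripts. Of the 100 highest in lincRNAseq, 21 had IgG signal, against 7.15% of all transcripts, and 59 had EZH2 signal, against 42.7%. Among the 10 highest with IgG, 6 had a lincRNA_FPKM of 0, and all 10 were among the 20 highest with EZH2. Their EZH2_FPKM was 1.38 to 7.63 times their IgG_FPKM, and the summed FPKM of all transcripts was 4.54 times as large with EZH2, so no order of the precipitates is read from these ratios.

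**Figure D5:**
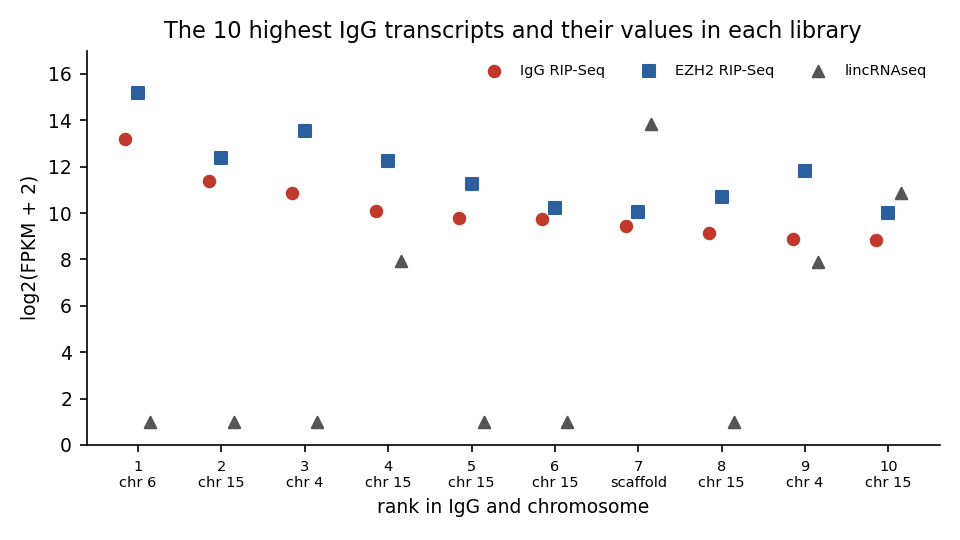
Log2(FPKM + 2) (vertical axis) in the IgG RIP-Seq, EZH2 RIP-Seq and lincRNAseq libraries for the 10 transcripts with the highest IgG_FPKM, by rank and chromosome (horizontal axis). The EZH2 values are 1.38 to 7.63 times the IgG values, where the summed FPKM is 4.54 times as large, and 6 transcripts are at a lincRNA_FPKM of 0, drawn at log2(2).

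The highest transcripts often stood side by side in the assembly. Of the 44 transcripts with an IgG_FPKM of at least 100, which held 66.5% of the summed IgG_FPKM, 14 fell into 4 runs of consecutive identifiers on the same chromosome. These 14 held 49.6% of the summed IgG_FPKM, 41.8% of EZH2_FPKM and 0.212% of lincRNA_FPKM. The longest run had 8 transcripts on chromosome 15, among them TCONS_00025359 and TCONS_00025364, with IgG_FPKM values from 174.4 to 2658, and 7 of the 8 had a lincRNA_FPKM of 0. TCONS_00045379 and TCONS_00045380 formed a run on chromosome 4, and TCONS_00053344 a run of 2 on chromosome 6. Such neighbours may share fragments or a locus, so they are not separate observations. Over all 9228 pairs of consecutive identifiers on a chromosome, the next transcript had IgG signal in 100 of 691 cases after a detected one (14.5%) and in 598 of 8537 after one at 0.

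IgG detection was also compared by place in the genome. The share was 7.10% (6.66 to 7.56) of 12427 autosomal transcripts, 8.07% (5.80 to 11.1) of 409 on chromosome X and 7.34% (6.21 to 8.66) of 1744 on unplaced scaffolds, and these intervals overlap. With a minimum IgG_FPKM of 5 the shares were 3.77%, 5.13% and 5.85%, so the likeness of autosomes and scaffolds depended on the minimum. Among the autosomes it ran from 4.95% (3.49 to 6.98) on chromosome 8 to 9.54% (7.74 to 11.7) on chromosome 15. The intervals of these 2 do not overlap, but the extremes of 18 chromosomes were picked after their values were seen, and no test was made of them. Of the summed IgG_FPKM, chromosome 6 held 28.0%, of which 25.1 percentage points were its run of 2 transcripts. Chromosome 15 held 21.9%, of which 17.7 were its run of 8. Unplaced scaffolds held 12.4% of the summed IgG_FPKM and 68.3% of the summed lincRNA_FPKM. Of the 68.3%, TCONS_00071881 held 28.6 percentage points and TCONS_00071869 held 11.5. Transcripts on 1 row were detected in 8.45% (7.45 to 9.57) of 2639 cases and those on 2 rows in 6.87% (6.43 to 7.33) of 11941.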

How the data were processed

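The authors deposited FPKM values for assembled transcripts, for which they used Tophat2 (alignment to Sus_scrofa 10.2), Cufflinks (assembly), Cuffcompare (annotation) and Cuffdiff (abundance). Versions of these tools are not given in the sources used here. FPKM divides by length and by library total, so short transcripts reach high values from few fragments. IgG and lincRNAseq values were joined by transcript, and ratios were log2[(IgG_FPKM + 2)/(lincRNA_FPKM + 2)] with a limit of 1. No test was made, because each condition had 1 library. Members and lists were chosen with earlier results of these data known. Named transcripts are those taken to RIP-PCR, the 2 largest and 2 smallest ratios above 0 in both, the 2 highest of each library and the 2 highest listed at 0 in the other. The fit of the fragment size was chosen after the data were seen; lengths came from the study's list of lincRNAs. The same fit to EZH2_FPKM gave whole multiples for 19.2% of 104 low values, no more than evenly spread values, so no EZH2 depth is given. The code was tested on simulated data. Alternatives varied the minimum values, pseudocount, limit, scaling, row counting and transcript length. The computing was done in Python 3.11.15 with scipy 1.17.1, pandas 2.3.3 and numpy 2.4.6, and figures were drawn with matplotlib 3.10.9.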

Additional observations from a re-analysis of the deposited data

How the results depend on the processing

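Of 58 values recomputed under alternatives, 35 stayed within the limits set for them, which for counts was 1.5 times the main count, and 23 did not. Within that limit, a pseudocount of 1 gave 3336 lower in place of 2283, and scaling to the same sum gave 951 higher in place of 672. Most of these values are counts or shares and cannot change sign. Counting every row in place of each transcript gave 1863 detected transcripts, 1252 with IgG at least 2-fold above lincRNAseq, 3522 at least 2-fold below and 195 with a lincRNA_FPKM of 0, and a share of 43.9% for the 10 highest. With a minimum IgG_FPKM of 5, 591 transcripts were detected, and the shares fell to 3.23% above 0.1 to 1, 4.70% above 1 to 10 and 5.34% above 10 to 100 in lincRNA_FPKM, and to 3.77% on autosomes, 5.13% on chromosome X and 5.85% on unplaced scaffolds; a minimum of 1 gave 6.55% above 0.1 to 1. With lincRNA_FPKM above 1, 311 were detected. Rank agreement was 0.154 among transcripts above 0 in both. A log2 limit of 2 left 352 higher and 1203 lower, a pseudocount of 0.1 gave 11108 lower, and centring subtracted 1.30 from every ratio, which gave 288 higher and, with all transcripts at an IgG_FPKM of 0, 13742 lower. The 10 highest held 34.0% without the highest transcript and 55.1% without unplaced scaffolds. The fragment size was 5.49 with lincRNAs of at least 400 nt. The size with the largest share of whole multiples, an alternative chosen after seeing the data, was 1.38. Whether such a search favours small sizes was not tested. Fragment numbers given for the size of 5.43 hold only for that size. Counts of rows rise by construction, since 11941 transcripts stand on 2 rows, and a higher minimum or log2 limit can only lower a count. For the other moved values the cause was not tested. Strand and mitochondrial classes were not run, since the tables used here have no strand column and no mitochondrial transcripts.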
